A study of Mus musculus with 48 samples.

Results

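The mouse mitochondrial genome is a circle of DNA inside the mitochondrion that is annotated with 37 genes: 13 for proteins, 22 for tRNAs and 2 for rRNAs. These genes were taken by their symbols, all of which start with mt-, and were 37 of the 55385 genes in the count table. They were measured by bulk RNA-seq in the substantia nigra (SN), the midbrain region whose dopaminergic neurons are lost in Parkinson's disease. The SN came from 48 male C57Bl/6J mice, 12 in each of 4 groups, which had a unilateral intrastriatal injection of α-synuclein at an age of 121 days and breathed 21% or 11% O2. The injection held either preformed fibrils (PFF), which seed aggregation of the protein, or its monomer, so that the control mice had also been operated on and had received α-synuclein. No group was left uninjected. Tissue was taken 90 to 98 days later, on dates that form 3 batches, and PFF models aggregation seeded from the striatum rather than a genetic form of the disease. The start of 11% O2 is described differently by the sources: the sample labels and methods place the mice in the chambers from recovery until harvest, whereas the design text deposited with the data has them switched from 21% to 11% O2 midway.

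The proteins made from mitochondrial genes are core subunits of the respiratory chain and ATP synthase, which nuclear genes complete. Each strand of the circle is transcribed as a long precursor, in which tRNA genes lie between most of the others, and excision of the tRNAs frees the mRNAs and rRNAs. Most mitochondrial mRNAs are polyadenylated, the mRNA of mt-Nd6 is known to lack a regular poly(A) tail, rRNAs carry short A tails, and mature tRNAs end in CCA without a tail. The libraries were made from poly(A)-selected RNA, so the counts below are of RNA that was captured with oligo(dT), and counts on tRNA genes can include precursor RNA.

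Of the 48 mice, 42 were analysed, the ones that the authors kept after a principal components analysis: 11 monomer and 12 PFF mice at 21% O2, and 9 monomer and 10 PFF mice at 11% O2. Counts on genes ran from 12902996 to 17120921 per mouse (median 15378651). Batch 1 held all 4 groups, batch 2 had no monomer mice at 11% O2, and batch 3 had no monomer mice at 21% O2. Monomer mice at the 2 O2 levels therefore met only in batch 1, with 4 mice of each. *Th*, an enzyme used as a marker of dopaminergic neurons, lay between 185.2 and 1153 TPM in the 42 mice (median 583 TPM). TPM is the count per gene length scaled to a fixed total per mouse.

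The short genes that were called in a comparison, mt-Atp8 and the tRNA genes mt-Ti, mt-Tw and mt-Ty, are shown with their sequences, because their length and their overlap with neighbours limit how many read pairs can be assigned to them. Capitals mark the bases that a neighbouring gene shares. The sequences are from GENCODE vM21 on GRCm38, 5′ to 3′ on the strand of the gene. mt-Atp8 lies on the plus strand at chrM:7766-7969 (43 bases shared with mt-Atp6). mt-Ti lies on the plus strand at chrM:3706-3774 (69 bases, 5 shared) and mt-Tw on the plus strand at chrM:4950-5016 (67 bases, 2 shared). mt-Ty is encoded on the minus strand at chrM:5260-5326 (67 bases, 0 shared).
mt-Atp8: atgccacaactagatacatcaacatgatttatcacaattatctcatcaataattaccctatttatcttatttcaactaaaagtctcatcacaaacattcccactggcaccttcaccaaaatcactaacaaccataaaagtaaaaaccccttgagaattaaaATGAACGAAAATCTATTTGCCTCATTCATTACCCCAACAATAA
mt-Ti: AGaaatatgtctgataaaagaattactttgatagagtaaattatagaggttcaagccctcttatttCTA
mt-Tw: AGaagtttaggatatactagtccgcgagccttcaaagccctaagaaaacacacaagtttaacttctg
mt-Ty: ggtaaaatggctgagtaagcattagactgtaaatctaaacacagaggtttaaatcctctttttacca

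The stated options of featureCounts did not let a pair count for more than 1 gene, and by default a pair that touches 2 genes equally goes to neither. The space between the neighbours of a gene, gaps included, was 58 to 105 bases for 21 tRNA genes and under 80 bases for 19 of them, which is shorter than the reads. Strand was not used for counting. Of the 37 genes, 28 lie on the plus strand and 9 on the minus strand, the latter being mt-Nd6 and 8 tRNA genes, so reads of mt-Nd6 cannot be told apart by strand from antisense RNA.

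Among the 15 protein and rRNA genes, mt-Co1, the catalytic subunit of cytochrome c oxidase (complex IV), had the highest level with a median of 19919 TPM over the 42 mice. mt-Atp6, the proton channel subunit of ATP synthase (complex V), followed with 15195 TPM. mt-Co2 (11344 TPM) and mt-Co3 (11198 TPM), the other core subunits of complex IV, were not separated, since mt-Co2 was above mt-Co3 in 21 of 42 mice. Nor were mt-Nd1, a membrane subunit of NADH dehydrogenase (complex I), at 10404 TPM and mt-Cytb, the cytochrome b of complex III, at 10385 TPM, with mt-Nd1 above mt-Cytb in 17 of 42 mice. mt-Nd4 had a median of 9151 TPM.

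The rRNAs of the small and the large ribosomal subunit, mt-Rnr1 (chrM:70-1024) and mt-Rnr2 (chrM:1094-2675), had medians of 7878 and 7742 TPM. mt-Rnr1 was above mt-Rnr2 in 26 of 42 mice. The remaining complex I subunits were mt-Nd2 at 7221, mt-Nd5 at 5200, mt-Nd4l at 4430, mt-Nd6 at 3563 and mt-Nd3 at 2590 TPM. Each of these 5 was above the next in 42 of 42 mice. mt-Atp8, the small accessory subunit of ATP synthase that is read from the same mRNA as mt-Atp6, was lowest with 1069 TPM. The span from mt-Co1 to mt-Atp8 was 18.6-fold in TPM. mt-Nd3 and mt-Atp8 were the only neighbours in this order whose ranges did not overlap.

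**Figure D1:**
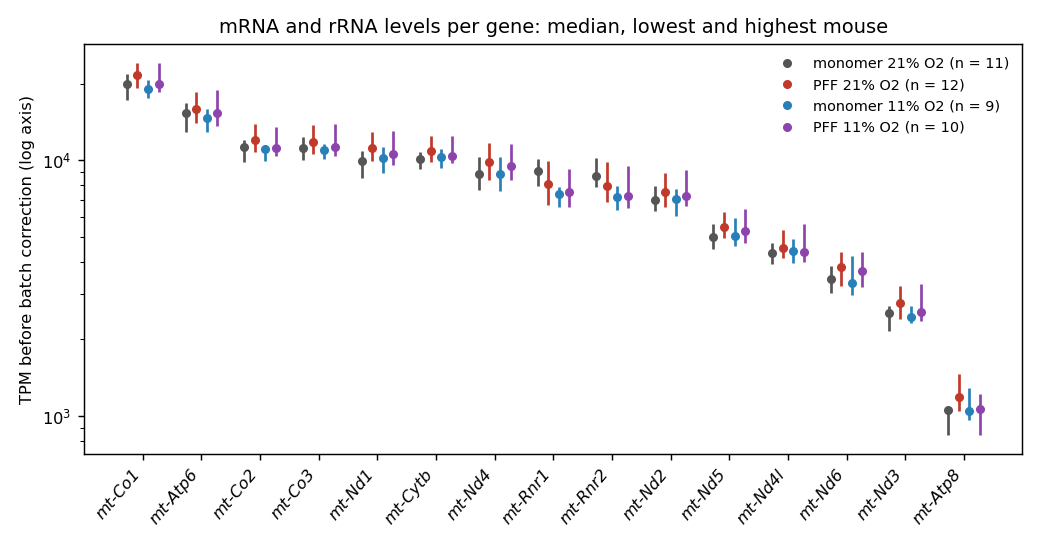
Level of the 13 protein and 2 rRNA genes in TPM before batch correction (log axis), ordered by their median over 42 mice. Points are group medians and bars run from the lowest to the highest mouse of the group. The order in TPM was led by mt-Co1 (19919 TPM) and closed by mt-Atp8 (1069 TPM), to which few pairs can be assigned.

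Of the 22 tRNA genes, 14 passed the filter on low counts. Among these, mt-Tp had the most counts, with a median of 1328 per mouse and a range of 1029 to 1829, and no gene is annotated after it on the genome. mt-Tc and mt-Tn, which have the widest spaces between their neighbours (100 and 105 bases), had medians of 196 and 188.5 counts. mt-Te had a median of 111.5 counts. The medians of the other 10 ran from 57.5 counts for mt-Tw through mt-Tl1 (41.5), mt-Ty (40.5), mt-Tl2 (36), mt-Tm (22.5), mt-Th (13), mt-Ts2 (12.5), mt-Ti (12) and mt-Tk (8) to 7.5 counts for mt-Tq. The 8 that did not pass, mt-Tf, mt-Tv, mt-Ta, mt-Ts1, mt-Td, mt-Tg, mt-Tr and mt-Tt, had 0 to 13 counts in the 42 mice, and mt-Tf had 0 counts in 39 of them. Levels this low say nothing of mature tRNA, which the selection for poly(A) does not capture by design.

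All 37 genes together took between 3.06% and 4.63% of the counts of a mouse (median 3.62%). As a share of TPM, which divides by gene length, they took 11.7% to 16.6% (median 13.4%). When breathing 21% O2, monomer mice had a share of counts from 3.14% through a median of 3.67% to 3.97%, and PFF mice from 3.36% through 3.92% to 4.63%. When breathing 11% O2, monomer mice had 3.06% through 3.57% to 3.87%, and PFF mice 3.27% through 3.60% to 4.62%. The 4 ranges overlapped. Protein genes held 81.7% to 86.2% of mitochondrial counts, rRNA genes 13.4% to 17.9% and tRNA genes 0.310% to 0.408%.

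**Figure D2:**
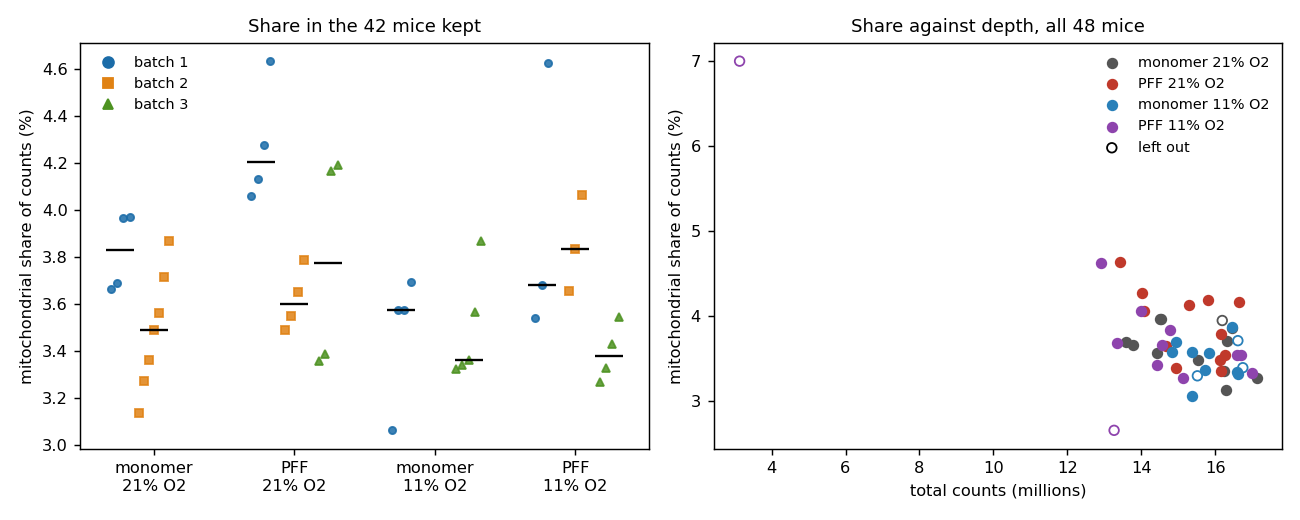
Share of a mouse's counts on the 37 mitochondrial genes, in percent, by group and batch (left, bars are batch medians) and against total counts on genes for all 48 mice (right, open symbols are the 6 mice left out). Group medians of the 42 mice lay between 3.57% and 3.92%, and the mouse with 3134594 counts stood apart at 6.99%.

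The first comparison asked what PFF changed when mice breathed 21% O2. All 13 protein genes had positive fold changes in PFF against monomer mice, with a median log2 fold change of 0.13 beside −0.00 over all 18293 genes tested, and both rRNA genes had negative ones. All 13 were also positive in batch 1 alone (median 0.17) and in batch 2 alone (median 0.08). Of the 29 mitochondrial genes tested, 1 was called, mt-Atp8. A call needed a log2 fold change beyond 0.25 and, in edgeR's quasi-likelihood test, an adjusted p (Benjamini–Hochberg, over all genes) under 0.05. This rule called 4.05% of all genes tested (2.65% higher and 1.39% lower).

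mt-Atp8 ran from 839 through a median of 1053 to 1078 TPM in monomer mice and from 1047 through 1183 to 1460 TPM in PFF mice. The ranges overlapped, although 11 of 12 PFF mice were above the highest monomer mouse. It had 0.29 on the log2 scale (SE 0.0675, adjusted p = 0.0050). In batch 1, the monomer mice had 839, 910, 1008 and 1056 TPM and the PFF mice 1155, 1170, 1197 and 1373 TPM, with no overlap. This was not particular to mt-Atp8, since mt-Atp6, mt-Nd1 and mt-Nd3 did not overlap in batch 1 either. The share of all genes without overlap there was not computed. For mt-Atp8, batch 1 fitted alone gave a log2 fold change of 0.38 (adjusted p = 0.312) and batch 2 gave 0.19 (adjusted p = 0.150), both in the same direction and neither past the threshold. With all 48 mice it was 0.25 (SE 0.120, adjusted p = 0.247).

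mt-Nd1 and mt-Nd3 passed the adjusted p but not the fold change threshold. At this p alone, 3 of 29 mitochondrial genes passed beside 8.14% of all genes. mt-Nd1 ran from 8506 through 9978 to 10863 TPM in monomer and from 9907 through 11213 to 12903 TPM in PFF mice. It had 0.19 on the log2 scale (SE 0.0535, adjusted p = 0.0175). mt-Nd3, another membrane subunit of complex I, ran from 2157 through 2518 to 2701 TPM in monomer and from 2395 through 2777 to 3233 TPM in PFF mice. It had 0.18 on the log2 scale (SE 0.0504, adjusted p = 0.0170). PFF mice were above the highest monomer mouse in 7 of 12 for mt-Nd1 and in 8 of 12 for mt-Nd3, so the groups overlapped for both genes over all batches, although not within batch 1.

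None of the other 10 protein genes passed the adjusted p. The log2 fold changes were 0.12 for mt-Nd2, 0.13 for mt-Nd4, 0.10 for mt-Nd4l, 0.14 for mt-Nd5 and 0.17 for mt-Nd6 in complex I. They were 0.13 for mt-Cytb (adjusted p = 0.0525), and 0.11, 0.13 and 0.11 for mt-Co1, mt-Co2 and mt-Co3. mt-Atp6, whose coding sequence overlaps that of mt-Atp8, had 0.11 on this scale (SE 0.0506, adjusted p = 0.166). At an unadjusted p under 0.05, 12 of the 13 were higher with PFF, mt-Nd4l being the exception, beside 11.6% of all genes. The 13 genes share 1 genome and its transcripts, so they are not 13 independent observations.

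mt-Atp8 was also set against mt-Atp6 within each mouse. Per 1000 counts of mt-Atp6, mt-Atp8 had 15.9 to 24.5 counts in monomer mice (median 20.5) and 19.0 to 27.7 in PFF mice (median 22.8) at 21% O2. It had 18.5 to 27.2 (median 23.0) in monomer and 15.5 to 23.7 (median 20.6) in PFF mice at 11% O2. The ranges of the 4 groups overlapped. In batch 1, which held all groups, the ratio was 15.9 to 19.2 in monomer and 19.0 to 22.1 in PFF mice at 21% O2, and 19.3 to 25.7 in monomer and 15.5 to 19.6 in PFF mice at 11% O2. In batch 2, monomer and PFF mice at 21% O2 overlapped, and the monomer mice there all lay above those of batch 1. The ratio was given no test.

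The rRNA genes did not share the direction of the protein genes. mt-Rnr1 ran from 7939 through 9123 to 10167 TPM in monomer and from 6669 through 8070 to 9967 TPM in PFF mice at 21% O2, with 6 of 12 PFF mice below the lowest monomer mouse. The log2 fold changes were −0.13 for mt-Rnr1 (SE 0.0609, adjusted p = 0.179) and −0.10 for mt-Rnr2 (SE 0.0608, adjusted p = 0.305), and neither was called. By batch, mt-Rnr1 was at 0.03 in batch 1 and −0.25 in batch 2 (adjusted p = 0.0467), where it was called and all 4 PFF mice were below the 7 monomer mice. In batch 2, mt-Rnr2 did not overlap either, and the share of all genes without overlap was not computed. mt-Rnr2 was at 0.04 in batch 1 and −0.22 in batch 2 (adjusted p = 0.0684). Among 11 lists of cell type markers, 1 gene was called between these groups, the oligodendrocyte precursor marker *Gpr17* (−0.39, adjusted p = 0.0103). It did not stand for its list, in which 2 of 3 markers had positive fold changes (median 0.04, log2). Fold changes were positive for all 5 microglial (median 0.16, log2), all 5 blood (0.24) and all 4 leptomeningeal markers (0.25), and negative for 5 of 6 neuronal (−0.08) and 6 of 7 dopaminergic markers (−0.04). None of these was called, and the part of other cells in the mitochondrial values was not tested.

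The second comparison asked what 11% O2 changed in monomer mice. Both rRNA genes and 3 tRNA genes were lower at 11% than at 21% O2, and no protein gene was called. These were 5 of the 29 genes tested, beside 4.66% of all genes, of which 1.66% were lower. The log2 fold changes of the 13 protein genes lay between −0.06 and 0.12 with a median of 0.01 (8 positive, 5 negative, adjusted p between 0.429 and 0.989). They were 0.05 for mt-Nd1, 0.00 for mt-Nd2, 0.02 for mt-Nd3, −0.02 for mt-Nd4, 0.02 for mt-Nd4l, 0.05 for mt-Nd5 and 0.03 for mt-Nd6 in complex I, and 0.01 for mt-Cytb in complex III. In complexes IV and V they were −0.06 for mt-Co1, −0.03 for mt-Co2, −0.06 for mt-Co3, −0.05 for mt-Atp6 and 0.12 for mt-Atp8. The direction of this list was not stable: in batch 1, where the groups meet, 1 of 13 was positive (median −0.06), as with only the compared groups in the fit (−0.07) and with the replicate number as a block (−0.06), and with all 48 mice 4 were (−0.02).

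mt-Rnr1 ran from 7939 through 9123 to 10167 TPM at 21% O2 and from 6557 through 7398 to 7890 TPM at 11% O2. All 9 mice breathing 11% O2 were below the lowest of the 11 mice breathing 21% O2. The gene had −0.30 on the log2 scale (SE 0.0729, adjusted p = 0.0072). Within batch 1, the mice had 8838, 9224, 9727 and 9859 TPM at 21% O2 and 6557, 7109, 7538 and 7619 TPM at 11% O2, again with no overlap. In batch 1, mt-Rnr2, mt-Tw and mt-Ty did not overlap either. The share of all genes without overlap was not computed, neither over all mice nor in batch 1. That batch fitted alone gave −0.39 (adjusted p = 0.0252).

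mt-Rnr2 ran from 7866 through 8689 to 10199 TPM at 21% O2 and from 6403 through 7214 to 7952 TPM at 11% O2, where 8 of 9 mice were below the lowest mouse at 21% O2. The gene had −0.32 on the log2 scale (SE 0.0728, adjusted p = 0.0046), and batch 1 alone gave −0.41 (adjusted p = 0.0291). The ratio of mt-Rnr2 to mt-Rnr1 in TPM lay between 0.913 and 1.07 in the 42 mice.

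The 3 tRNA genes that were called are those for tryptophan, isoleucine and tyrosine, whose sequences are printed above. mt-Tw ran from 54 through 65 to 93 counts at 21% O2 and from 35 through 42 to 67 counts at 11% O2 in monomer mice. In TPM, 8 of 9 mice breathing 11% O2 were below the lowest at 21% O2, and the fit gave −0.61 on the log2 scale (SE 0.152, adjusted p = 0.0094). mt-Ty ran from 125 through 156 to 206.6 TPM at 21% O2 and from 80.8 through 122.5 to 162.4 TPM at 11% O2, with 5 of 9 mice below the lowest at 21% O2. It had −0.42 on the log2 scale (SE 0.127, adjusted p = 0.0348).

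mt-Ti had the largest fold change of the 5 and the fewest counts: in batch 1, the mice had 10, 11, 15 and 25 counts at 21% O2 and 4, 4, 10 and 12 counts at 11% O2. The gene had −0.89 on the log2 scale (SE 0.270, adjusted p = 0.0375). At this depth, the calls of mt-Ti and mt-Ty were not firm. Batch 1 alone gave −1.11 for mt-Ti (adjusted p = 0.117), −0.64 for mt-Tw (adjusted p = 0.0916) and −0.54 for mt-Ty (adjusted p = 0.0730). mt-Ti lost its call without monomer mouse 2, 3, 4 or 7 at 11% O2, monomer mouse 3, 4 or 6 at 21% O2, PFF mouse 12 at 21% O2 or PFF mouse 11 at 11% O2, with log2 fold changes of −0.98 to −0.75 over all fits that left out 1 mouse. mt-Ty lost its call without monomer mouse 1, 2, 3 or 4 at 11% O2 or monomer mouse 2, 4 or 9 at 21% O2, with −0.47 to −0.38. Of the other 11 tRNA genes tested, none was called and 8 had negative fold changes.

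**Figure D3:**
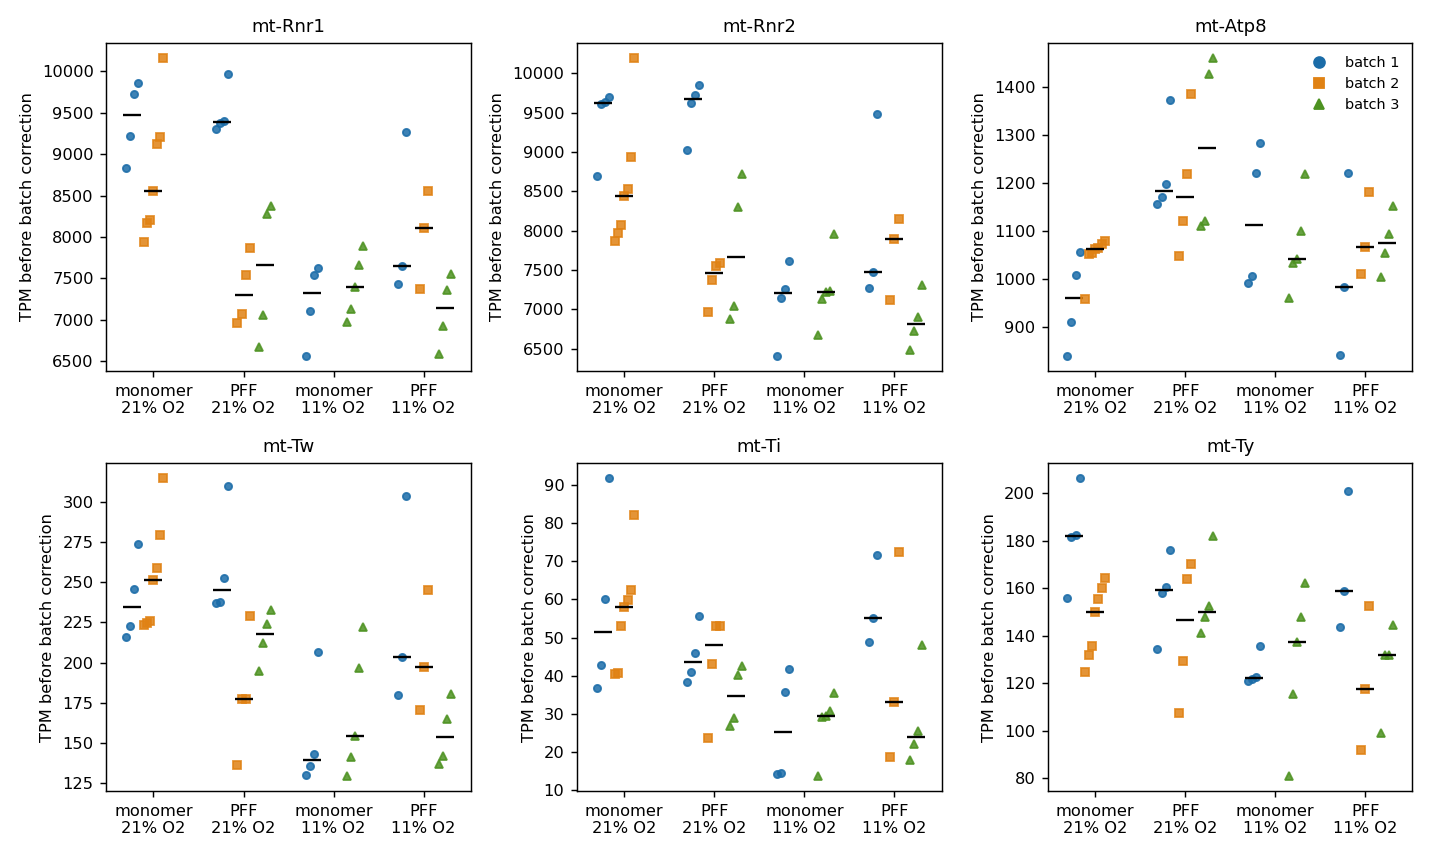
TPM before batch correction of the 6 mitochondrial genes called in any comparison, by group and batch; each point is a mouse and bars are batch medians. mt-Rnr1 lay at 7939 to 10167 TPM in monomer mice at 21% O2 and at 6557 to 7890 TPM in monomer mice at 11% O2.

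RNA of other cells moved with 11% O2 in monomer mice. All 5 blood markers were called higher (median log2 fold change 1.18), and their summed level ran from 551 to 1483 TPM at 21% O2 and from 953 to 5344 TPM at 11% O2. The 5 endothelial markers were all higher, 3 of them called (summed level 86.1 to 165.7 TPM at 21% and 127 to 383 TPM at 11% O2), as were the 5 pericyte markers, 4 of them called (145 to 285 TPM and 210.8 to 561 TPM). All 5 oligodendrocyte markers had positive fold changes (median 0.10, log2) and 1, *Mog*, was called (0.32, adjusted p = 0.0062). All 5 microglial (0.23) and all 4 leptomeningeal markers (0.37) had positive fold changes as well, and none was called. The fold changes of all 6 neuronal markers were negative (median −0.04), those of 4 of 7 dopaminergic markers were positive (0.01), and none was called. No marker of these lists was at 0 in every mouse of a group, and their part in the lower rRNA and tRNA values was not tested. In bulk SN, fewer cells of a type and less RNA per cell cannot be told apart.

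To follow rRNA and mRNA within the same mouse, counts of the 2 rRNA genes were divided by those of the 13 protein genes, which removes the total count of the mouse from the comparison. Monomer mice at 21% O2 had 18.8 to 21.9 rRNA counts per 100 mRNA counts (median 20.2). PFF mice at 21% O2 had 15.6 to 19.1 (median 16.8), monomer mice at 11% O2 had 16.0 to 17.9 (median 16.5), and PFF mice at 11% O2 had 15.7 to 17.1 (median 16.6). Monomer mice at 21% O2 thus stood above both groups at 11% O2 without overlap, and overlapped with PFF mice at 21% O2 only through batch 1 values of the latter.

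The ratio was also compared within batches. In batch 1, the ratio was 19.7 to 21.0 in monomer and 18.1 to 19.1 in PFF mice at 21% O2, and 16.2 to 16.6 in monomer and 16.2 to 17.1 in PFF mice at 11% O2. In batch 2, it was 18.8 to 21.9 in monomer and 15.6 to 17.0 in PFF mice at 21% O2, and 15.7 to 17.0 in PFF mice at 11% O2. In batch 3, which had no monomer mice at 21% O2, the 3 groups lay at 16.0 to 17.3, 16.0 to 17.9 and 15.8 to 16.8. In both batches that held them, monomer mice at 21% O2 did not overlap with any other group. PFF mice at 21% O2 were above both groups at 11% O2 in batch 1 but overlapped with PFF mice at 11% O2 in batch 2 and with both groups in batch 3. These ratios are a description and were given no test.

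**Figure D4:**
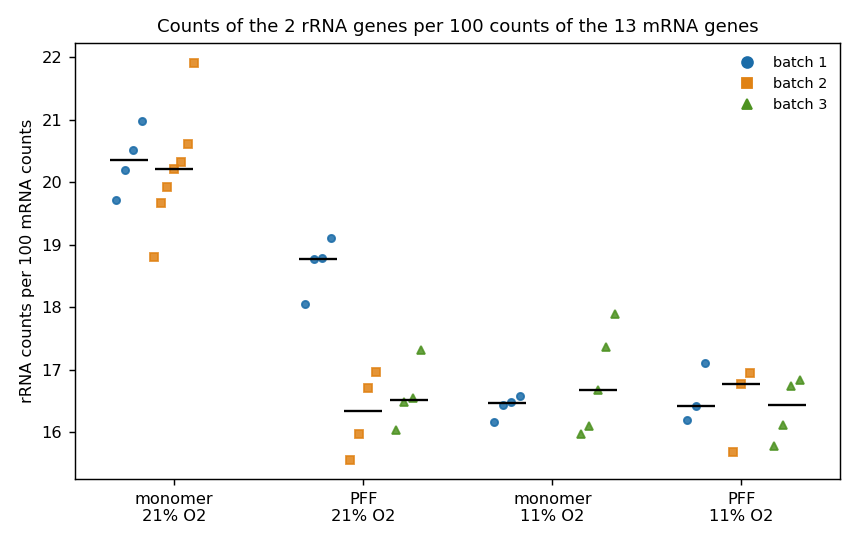
Counts of mt-Rnr1 and mt-Rnr2 per 100 counts of the 13 mitochondrial protein genes, by group and batch; each point is a mouse and bars are batch medians. Monomer mice breathing 21% O2 (18.8 to 21.9) were above the other groups in both batches that held them.

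The third comparison asked what PFF changed when mice breathed 11% O2. None of the 29 mitochondrial genes was called, beside 0% of all genes, and at an unadjusted p under 0.05 there were 6 of the 29 beside 3.86% of all genes. Of these 6, 3 were tRNA genes. Among the 14 tRNA genes tested, 13 had positive fold changes (median 0.17, log2). The median log2 fold change of the 13 protein genes was 0.10, and 12 of them were positive. Batches differed in sign, with a median of 0.18 in batch 1 alone (12 positive) and −0.03 in batch 3 alone (4 positive), the batches that held both groups. With all 48 mice, it was 0.17 and all 13 were positive. mt-Atp8, the gene that was called at 21% O2, was the exception with −0.04 (SE 0.0720). It ran from 960 through 1040 to 1283 TPM in monomer and from 842 through 1060 to 1220 TPM in PFF mice, and the groups overlapped. In complex I, the log2 fold changes were 0.10 for mt-Nd1, 0.10 for mt-Nd2, 0.09 for mt-Nd3, 0.12 for mt-Nd4, 0.06 for mt-Nd4l, 0.07 for mt-Nd5 and 0.10 for mt-Nd6. They were 0.09 for mt-Cytb, 0.10 for mt-Co1, 0.09 for mt-Co2, 0.11 for mt-Co3 and 0.12 for mt-Atp6. Those of mt-Rnr1 and mt-Rnr2 were both 0.10, opposite in sign to the values at 21% O2. Adjusted p of the 29 genes were all 1.00, and DESeq2 also called 0 of them. Of the marker lists, all 4 leptomeningeal (median −0.44, log2), all 5 blood (−0.21), all 5 pericyte (−0.19) and 4 of 5 microglial markers (−0.07) had negative fold changes. So had all 5 oligodendrocyte (−0.10), all 5 astrocyte (−0.005) and all 3 oligodendrocyte precursor markers (−0.11). The same held for 4 of 5 endothelial (−0.18) and 3 of 4 choroid plexus markers (−0.26). Fold changes of 6 of 7 dopaminergic (0.02) and 4 of 6 neuronal markers (0.02) were positive. No marker was called, and their part in the mitochondrial values was not tested.

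The fourth comparison asked what 11% O2 changed in PFF mice. None of the 29 genes was called by edgeR or DESeq2, beside 0.536% of all genes for edgeR, and 6 of the 29 had an unadjusted p under 0.05 beside 11.7% of all genes. All 13 protein genes had negative log2 fold changes, with a median of −0.04, and all but mt-Atp8 were between −0.07 and −0.02. Their sign also depended on the mice: the median was −0.09 in batch 1 alone (0 of 13 positive), 0.10 in batch 2 alone (12 positive), −0.13 in batch 3 alone (0 positive) and 0.03 with all 48 mice (8 positive). In the fit on 42 mice, the log2 fold changes were −0.04 for mt-Nd1, −0.02 for mt-Nd2, −0.07 for mt-Nd3, −0.02 for mt-Nd4, −0.03 for mt-Nd4l, −0.02 for mt-Nd5 and −0.04 for mt-Nd6. They were −0.03 for mt-Cytb, −0.06 for mt-Co1, −0.06 for mt-Co2, −0.05 for mt-Co3 and −0.04 for mt-Atp6. mt-Atp8 ran from 1047 through 1183 to 1460 TPM at 21% O2 and from 842 through 1060 to 1220 TPM at 11% O2. It had −0.21 on the log2 scale (SE 0.0652, adjusted p = 0.118). mt-Rnr1 (8070 TPM at 21% and 7493 TPM at 11% O2, medians) had −0.07 (adjusted p = 0.694) and mt-Rnr2 (7943 and 7286 TPM) had −0.12 (adjusted p = 0.420). Nor did the batches share a sign here: mt-Rnr1 was at −0.23, 0.15 and −0.10, and mt-Rnr2 at −0.25, 0.09 and −0.18, in batches 1, 2 and 3. Blood markers were higher here as well (median log2 fold change 0.73) but none was called, whereas 2 endothelial and 3 pericyte markers were.

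**Figure D5:**
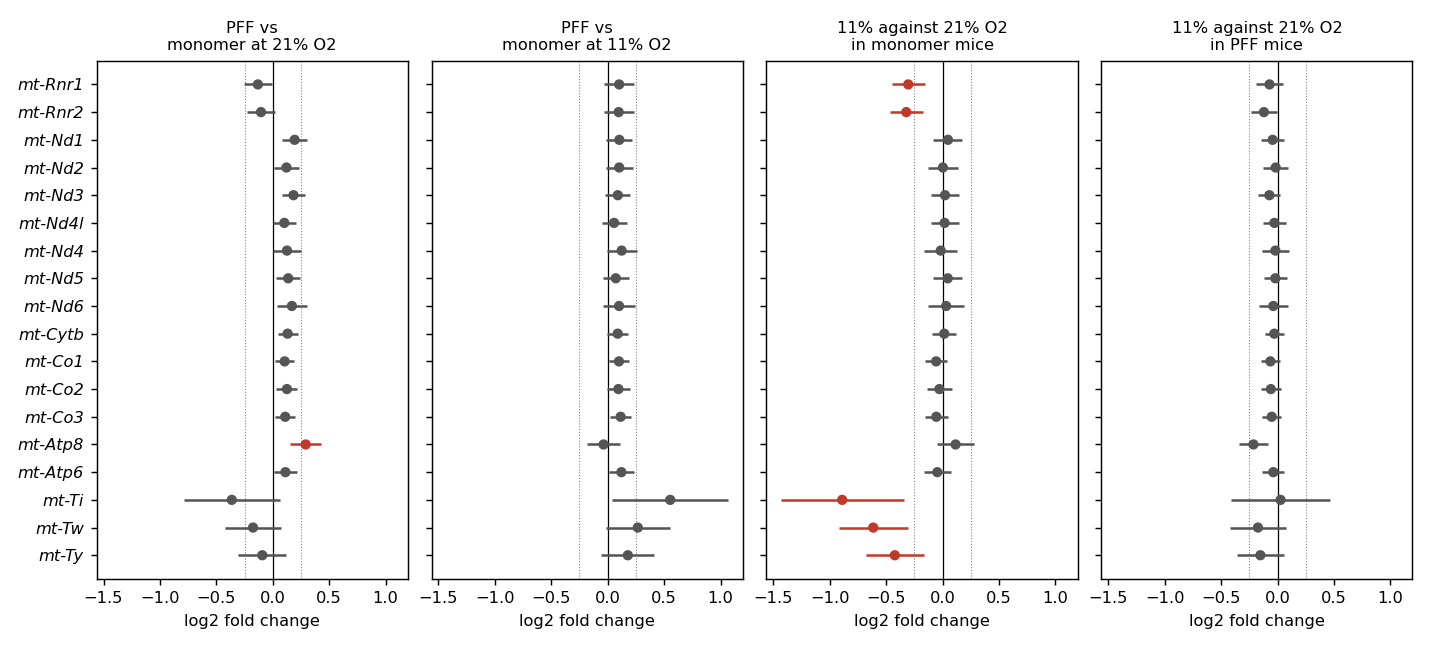
Log2 fold changes of 18 mitochondrial genes in 4 comparisons, with 95% confidence intervals from edgeR's quasi-likelihood fit on 42 mice; red marks the called genes and dotted lines the threshold of 0.25 in either direction. Called were mt-Atp8 with PFF at 21% O2 (0.29), and mt-Rnr1, mt-Rnr2, mt-Tw, mt-Ti and mt-Ty with 11% O2 in monomer mice (−0.30 to −0.89).

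The interaction asked whether the response to PFF differed between the O2 levels. It shares its mice with the comparisons above. None of the 29 genes was called by edgeR or DESeq2, beside 1.59% of all genes for edgeR, and 5 of the 29 had an unadjusted p under 0.05 beside 14.7% of all genes. mt-Atp8 came closest with −0.33 (SE 0.102, adjusted p = 0.0828, 95% confidence interval −0.53 to −0.12), the log2 fold change of PFF at 11% O2 minus that at 21% O2. It was called without PFF mouse 1 at 11% O2 (−0.37, adjusted p = 0.0408) or without PFF mouse 5 at 21% O2 (−0.38, adjusted p = 0.0438). mt-Rnr1 and mt-Rnr2 had 0.23 (SE 0.0931, adjusted p = 0.210) and 0.20 (SE 0.0930, adjusted p = 0.295). mt-Ti had 0.92 (SE 0.343, adjusted p = 0.169), and 10 of the 14 tRNA genes tested were positive (median 0.15). The other 12 protein genes lay between −0.09 (mt-Nd3 and mt-Nd1) and 0.01 (mt-Atp6), and a difference of their PFF response between O2 levels was not detected here. Between these were mt-Nd6 and mt-Nd5 with −0.07 and −0.06, mt-Nd4l with −0.05, mt-Cytb with −0.04, mt-Co2 with −0.03, mt-Nd2 with −0.02, mt-Co1 with −0.01, mt-Nd4 with −0.00 and mt-Co3 with 0.00. The median over the 13 was −0.04 (2 positive), but 0.01 in batch 1 alone (7 positive), 0.04 with all 48 mice (10 positive) and 0.03 with the replicate number as a block (9 positive). The interaction was negative for all 5 microglial (median −0.19, log2), all 5 blood (−0.45) and all 4 leptomeningeal markers (−0.62). It was also negative for all 5 pericyte (−0.24), all 5 oligodendrocyte (−0.15), all 5 astrocyte (−0.06) and all 4 choroid plexus markers (−0.39). The same held for 4 of 5 endothelial (−0.24) and 2 of 3 oligodendrocyte precursor markers (−0.14). The interaction was positive for all 6 neuronal (0.08) and 6 of 7 dopaminergic markers (0.06). No marker was called, and their part in these values was not tested.

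Nuclear genes provide the partners of the mitochondrial proteins, and their subunits were listed for each complex. With PFF at 21% O2, 33 of 36 nuclear complex I genes had positive fold changes (median log2 fold change 0.06), as did 9 of 9 in complex III (0.04), 11 of 11 in complex IV (0.07) and 13 of 15 in complex V (0.06). None of these nuclear genes was called in any comparison. The mitochondrial protein genes had a median of 0.13 in the same comparison, and the difference between the lists was not tested. In PFF mice, 29 of 36 complex I genes were lower at 11% O2 (median −0.03), and in monomer mice 20 of 36 were (median −0.01).

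Genes that act on the mitochondrial genome or its RNA were mostly not called. *Polrmt*, the RNA polymerase of the mitochondrion, had log2 fold changes of −0.01 and −0.03 with PFF at 21% and 11% O2, and of 0.10 and 0.09 with 11% O2 in monomer and PFF mice. *Tfam*, which packages the genome and starts transcription, had 0.06, 0.07, −0.03 and −0.02 in the same order. *Lrpprc*, which stabilizes mitochondrial mRNAs, had 0.01, 0.05, −0.04 and 0.00. None of the 9 genes for transcription, the 21 for processing and stability of mitochondrial RNA or the 9 for rRNA maturation was called in any comparison.

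Among 11 genes for replication of mitochondrial DNA, 2 were called lower in 2 comparisons. Of all genes tested, 1.39% were called lower with PFF at 21% O2 and 1.66% with 11% O2 in monomer mice. *Twnk*, the helicase of mitochondrial DNA, had log2 fold changes of −0.28 with PFF at 21% O2 (SE 0.0568, adjusted p = 0.0015) and of −0.28 with 11% O2 in monomer mice (SE 0.0678, adjusted p = 0.0070). *Mgme1*, an exonuclease that trims mitochondrial DNA, had −0.28 (adjusted p = 0.0125) and −0.30 (adjusted p = 0.0356) in these comparisons, which share the monomer mice at 21% O2. Of the 7 regulators of mitochondrial biogenesis, the coactivator *Ppargc1b* was called lower in both (−0.26, adjusted p = 0.0271, and −0.33, adjusted p = 0.0215). The interaction called *Twnk* (0.35, adjusted p = 0.0234) and *Ppargc1b* (0.44, adjusted p = 0.0378), beside 1.59% of all genes.

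Of 23 genes that charge or modify mitochondrial tRNA, 1 was called with PFF at 21% O2, beside 4.05% of all genes. This was *Nsun3*, a methyltransferase of mt-Tm, which was higher (0.25, adjusted p = 0.0122). mt-Tm itself had −0.17 (adjusted p = 0.570) there. With 11% O2 in monomer mice, *Nsun3* had 0.24 (adjusted p = 0.0480) and passed the adjusted p but not the fold change threshold. Of 13 translation factors, 1 was called with 11% O2 in monomer mice, beside 4.66% of all genes. This was *Mtrf1l*, a release factor, which was lower (−0.31, adjusted p = 0.0087). With PFF at 21% O2, *Mtrf1l* had −0.23 (adjusted p = 0.0192) and also missed only the fold change threshold. These comparisons share the monomer mice at 21% O2.

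A nuclear insertion of mitochondrial DNA on chromosome 1 carries 6 annotated genes that are near copies of mitochondrial ones, so reads can be shared between them. Between 97.2% and 100% of the 31-base words of *Gm10925*, *Gm28437*, *Gm28438*, *Gm28439*, *Gm28661* and *Gm29216* also occur in mt-Atp6, mt-Co3, mt-Nd3, mt-Nd4, mt-Co2 and mt-Co1, in that order. The authors gave the mitochondrial position to reads that matched both genomes equally. The 6 copies together had 1951 to 4548 counts per mouse (median 2732), or 4.64 to 7.73 per 1000 counts of mitochondrial protein genes. With PFF at 21% O2, all 6 were higher (median log2 fold change 0.28) and none was called. With 11% O2 in PFF mice, all 6 were lower (median −0.27, log2) and 1 was called, beside 0.536% of all genes. This was *Gm28438* (−0.48, SE 0.118, adjusted p = 0.0317), which had the fewest counts of the 6 (33 to 101, median 57.5). mt-Nd3, the gene it resembles, had −0.07, and the difference between them was not tested.

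The spread between mice of the same group and batch was computed for the 15 protein and rRNA genes. The residual standard deviation on the log2 scale was 0.0814 for mt-Co1, the lowest of these, 0.132 and 0.134 for mt-Rnr1 and mt-Rnr2, and 0.149 for mt-Atp8, the highest. mt-Nd4l, which is read from the same mRNA as mt-Nd4, had 95.5 to 117 counts per 1000 counts of mt-Nd4, and this ratio did not separate the groups.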

How the data were processed

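Poly(A)-selected RNA of the SN of 48 mice was sequenced in pairs by the authors, without strand. They removed reads of nuclear ribosomal DNA, aligned the rest to mm10 with STAR 2.7.5a, removed duplicates with Picard 2.21.9 and assigned pairs to GENCODE vM24 genes with featureCounts 2.0.1, using the primary alignment. The authors deposited these counts, whole and not normalized, and TPM computed from them, as well as counts and TPM after ComBat-seq batch correction for protein-coding genes in the 42 mice kept.

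Counts before correction entered edgeR 4.0.16 under R 4.3.3 (TMM, filterByExpr by group, 18293 genes, the 4 groups and batch in a single quasi-likelihood fit, Benjamini–Hochberg adjustment over all genes). The counts were used without a further correction for length, and TPM served for levels. SE was obtained from the fold change and the F statistic. On simulated data for PFF at 21% O2 (18163 genes tested), 70 of 99 genes changed by 0.5 and 94 of 99 changed by 1 on the log2 scale were called, and 1 unchanged gene was. The simulated means held no batch effect and no change smaller than 0.5. These rates therefore do not cover the smaller fold changes reported here. All mitochondrial genes were accounted for, the protein and rRNA genes were named with fold changes in every comparison, and tRNA genes were given fold changes where called or where a partner gene is described. *Nsun3* with mt-Tm was set side by side after the values were seen. The members and gene lists were chosen with earlier results of these data known. Alternatives included DESeq2 1.42.0 and its size factors, limma 3.58.1 on log2(TPM + 1) and log2(TPM + 0.1), other filters, batch terms, sets of mice and library sizes, and each mouse left out. Columns of the paper's own comparisons were not used, and the mature tRNA pool was not analysed here. The methods describe a randomized design with mice matched by weight, age, date of delivery and, where it could be done, cage. Which of these mice were matched is not given in the sources used here, so no matching entered the fits.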

Additional observations from a re-analysis of the deposited data

Results flagged for a closer look

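Mouse 1 of the PFF group at 11% O2 stood apart from the other 9 mice of its group in 4 genes, because its gap to the next mouse was a larger part of the group's range than the 95% critical value of Dixon's test for 10 mice, 0.466. It had 13086 TPM of mt-Nd1 (next mouse 11386, gap over range 0.490), 24024 TPM of mt-Co1 (next 21074, 0.530), 13867 TPM of mt-Co3 (next 12053, 0.519) and 3286 TPM of mt-Nd3 (next 2813.6, 0.501). In all, 40 values were tested, and this test flags about 5% of groups by chance. These values came only from the groups at 11% O2, which held 9 monomer and 10 PFF mice. The other groups, which held more mice, were not screened, so a lone mouse in them was not looked for. The 4 genes share the mouse, so they are not separate observations.

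Mouse 2 of the PFF group at 11% O2, which the authors left out, had 6.99% of its counts on mitochondrial genes. The highest monomer mouse at 21% O2 had 3.97%. It also had the fewest counts of all 48 mice (3134594) and 14.5 rRNA counts per 100 mitochondrial mRNA counts. It was drawn to attention as a value outside the mice compared.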

How the results depend on the processing

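Of the 5 members called with 11% O2 in monomer mice, mt-Rnr1 and mt-Rnr2 were called under each of 14 alternatives (log2 fold changes −0.39 to −0.28 and −0.41 to −0.31) and without any 1 of the 42 mice, mt-Tw under 12, and mt-Ti and mt-Ty under 10 each. The count of 5 became 0 on batch-corrected counts, which hold protein genes only, 3 without the filter on low counts, 2 in batch 1 alone, 2 with only the compared groups in the fit and 4 with all 48 mice (mt-Ti, adjusted p = 0.0584). With no batch term it was also 5, but mt-Ty was lost (adjusted p = 0.0580) and mt-Tm gained (−0.60, adjusted p = 0.0172). Leaving out 1 mouse gave 3 to 6, and the sixth gene was mt-Tm (−0.59, adjusted p = 0.0449) without PFF mouse 9 at 21% O2. For PFF at 21% O2, the single call became 0 with all 48 mice, 0 in batch 1 alone and 3 at the adjusted p alone. Batch 2 alone also gave 1 call, but of mt-Rnr1 and not of mt-Atp8. mt-Atp8 was called under 13 of 16 alternatives and without any 1 mouse (0.26 to 0.33), so leaving out 1 mouse gave 1 to 1. The interaction count of 0 became 1 with no batch term, mt-Atp8 at −0.32 (adjusted p = 0.0479), and leaving out 1 mouse gave 0 to 1. The other comparisons gave 0 to 0. No fold change of a called gene changed sign.

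The median share of counts was 3.04%, 3.33%, 3.06% and 3.09% over the 13 protein genes only, and 13.6%, 14.5%, 13.3% and 13.5% as a share of TPM, for monomer and PFF mice at 21% O2 and monomer and PFF mice at 11% O2. With the replicate number as a block beside batch, the counts of members called were 1, 0, 5, 0 and 0, as without the block. Of 54 pairs of mice with the same number, 13 had a correlation of their deviations over 0.1 (median −0.011). The median was 0.003 over 605 pairs of mice from different groups with different numbers. Matching by weight, age or cage need not show in these correlations, so they cannot tell which mice were matched. Counts of 4 to 25 on mt-Ti and 0 to 13 on the 8 tRNA genes not tested limit what depth can show for tRNA genes.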
